A study of Mus musculus with 8 samples.

Results

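The genes described here are 10 members of the YAP/TAZ pathway other than the CCN genes. Yap1 and Wwtr1 encode the transcriptional co-activators YAP and TAZ, and Tead1 encodes a DNA-binding partner of both. Lats2, Ajuba, Amotl2 and Ptpn14 encode regulators of YAP, and Ankrd1, Axl and Crim1 are reported target genes. They were chosen by name from knowledge of the pathway, without a threshold on the measured values but with earlier results of these data known. All of their probes on the array were read, with Jub accepted as the older name of Ajuba. Together they had 13 of the 25697 probes, 2 each for Wwtr1, Ankrd1 and Ajuba and 1 for each other gene. The named probes stood for 16593 genes, of which 8360 were detected well enough to be tested, among them 7 of these 10 genes.

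The study examined what an active form of the small GTPase RhoA changes in the messenger RNA of mesenchymal stem cells (MSCs). Mouse bone marrow MSCs at passage 6 were transfected with a lipid reagent and carried either an empty vector (EV, 4 arrays) or Myc-tagged L63RhoA, a constitutively active mutant (4 arrays). Every sample was grown in the same serum-containing medium. RNA was taken 48 h after transfection according to the sample labels and 3 days after it according to the design text. The purchased cells were a bulk culture, the share of cells that took up the plasmid is not given in the sources used here, and in bulk RNA fewer cells expressing a gene and less RNA per cell cannot be told apart. Series text speaks of 4 independent experiments without tying them to the replicate numbers, and the p-values therefore rest on array-to-array spread, which may be technical.

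In the Hippo pathway, a kinase cascade ending in LATS1 and LATS2 phosphorylates YAP and TAZ and keeps them in the cytoplasm, where they are degraded. When the cascade is low, YAP and TAZ enter the nucleus and bind TEAD factors, which recognise a short DNA motif and switch on target genes such as the CCN family, Ankrd1 and Axl. Several targets, among them LATS2, AMOTL2, AJUBA and PTPN14, restrain or tune YAP in turn, and RhoA acting through the actin cytoskeleton is a well-known activator of YAP and TAZ in adherent cells.

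The promoter windows of these genes are shown first because TEAD factors bind DNA for YAP and TAZ. Whether TEAD factors bind these windows was not measured. The window of each start site held 300 bases, 250 before and 50 after it, in the RefSeq promoter table of build GRCm38.p6. Of the 10 genes, 9 had an entry. Tead1 had none. The TEAD motif, GGAATG or CATTCC when read on the other strand, was found in 9 of 9 genes, in 965 of the 6836 tested genes with an entry (14.1%) and in 4817 of all 32851 windows (14.7%). It was found in 0 of the 8 other reported YAP/TAZ targets with an entry, and in 8 of 31 genes (25.8%) over the 3 other pathway lists that hold them. The search was made after these promoters had been looked at, and the genes had been listed as pathway genes and targets to begin with, so the share is a description and no test was made. Lats2 held the motif in 1 of its 2 windows and both windows of Wwtr1 held the same site. In each line the motif is in capitals, and the sequence runs 5' to 3' on the strand of the gene.
Yap1, chr9:8004722-8004747, minus strand: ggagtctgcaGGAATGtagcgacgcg
Wwtr1, chr3:57576031-57576056, minus strand: taaactcaaaGGAATGcagataggcg
Lats2, chr14:57746104-57746129, minus strand: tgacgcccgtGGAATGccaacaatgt
Ajuba, upstream site, chr14:54577832-54577857, minus strand: ttgatggataCATTCCacagtgcccc
Ajuba, downstream site, chr14:54577810-54577835, minus strand: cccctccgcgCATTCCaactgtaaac
Amotl2, chr9:102717729-102717754, plus strand: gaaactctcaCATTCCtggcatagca
Ptpn14, chr1:189728112-189728137, plus strand: tccccggacgCATTCCtggcccgccc
Axl, chr7:25788951-25788976, minus strand: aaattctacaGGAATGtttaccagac
Crim1, chr17:78200159-78200184, plus strand: ggcgggggggGGAATGaggtaggatg
Ankrd1, stretch with both sites, chr19:36119952-36120064, minus strand: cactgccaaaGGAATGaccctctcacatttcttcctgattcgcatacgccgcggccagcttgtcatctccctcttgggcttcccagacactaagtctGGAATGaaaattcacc

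Positions are counted from the transcription start of the window, which need not be the first base of the gene. The gene annotation began Amotl2 at 102717091 (plus strand) and Lats2 at 57746212 (minus strand), so these sites lay inside the annotated genes. Counted from the start of the window, the motif lay before the start in 8 genes. It lay just after the start in Lats2, where the first base of the motif was base 5. Ankrd1, a nuclear and sarcomeric ankyrin repeat protein, carried the motif at 210 and at 123 bases upstream, so that the first bases of the sites were 87 bases apart. Ajuba carried it at 186 and 164 bases upstream. The remaining sites began between 233 bases (Axl) and 65 bases (Amotl2) upstream. No CArG box, the motif of the actin-responsive factor SRF, was found in these 9 genes, against 1.61% of the tested genes with an entry. Calls were rare with the motif and without it. An adjusted p under 0.05 between L63RhoA and EV was reached by 7 of the 965 genes with a TEAD motif (0.725%) and by 33 of the 5871 without it (0.562%), with median log2 changes of 0.0056 and 0.0118. Ccn1, the shared CCN target with an entry, held the motif 103 bases upstream.

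**Figure D1:**
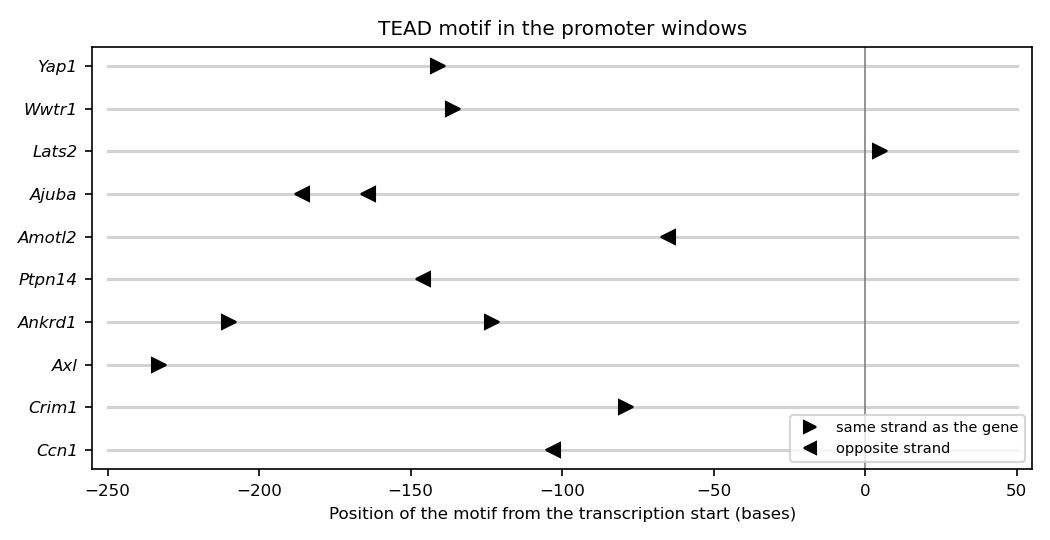
Position of the TEAD motif in the promoter window of each gene, in bases from the transcription start of that window (horizontal axis). Grey lines are the windows, and triangles point right for the strand of the gene and left for the opposite strand. Ankrd1 and Ajuba hold 2 sites each, and the site of Lats2 lies after the start.

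The arrays themselves differed in ways the groups do not explain. Between 11925 and 12981 probes were detected per array, with mean signals of 274 to 377. The first component of the spread within groups held 48.2% of it and had its largest scores on EV replicate 3 (17.6) and L63RhoA replicate 1 (-17.4), so values that rest on these arrays are given with and without them. EV replicates 2 (-10.8) and 4 (-11.7) scored opposite to EV replicates 1 (4.94) and 3, while L63RhoA replicates 2 to 4 scored 4.56 to 6.76. The probe of Rhoa itself stayed below detection on all 8 arrays and could not check the labels. Of 12 MSC markers, 11 had a probe and 9 were tested, none of them called, against 0.706% of all tested genes. At an unadjusted p under 0.05, 2 of the 9 were lower, against 10.7% of all tested genes. The probe of Thy1 and the brighter of 2 probes of Lepr were not detected on any array. Of 9 haematopoietic markers 6 had a probe and only Cd14 was tested, at a log2 change of 0.07. The brighter of 2 probes of the haematopoietic marker Ptprc (CD45) and the probe of the endothelial marker Cdh5 were not detected on any array. Of 8 endothelial markers 7 had a probe and 3 were tested, Kdr, Tek and Vwf, at log2 changes of 0.28, 0.47 and 0.32 with no adjusted p below 0.0869 by limma. Tek was detected on 0 of 4 EV arrays and 4 of 4 L63RhoA arrays and so entered the test only through the group where it was higher, and Kdr was detected on 2 EV and 3 L63RhoA arrays. Their part in the values below was not tested.

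None of the 7 tested genes reached an adjusted p of 0.05 by limma over all 8360 genes, where 59 genes (0.706%) did, 32 of them higher in L63RhoA (0.383%) and 27 lower (0.323%). At an unadjusted p under 0.05 there was 1 of 7, against 24.4% of all tested genes. An unmoderated test of the same values gave 0 of 7 after adjustment, against 0.323% of all tested genes. Before adjustment it gave 2 of 7, against 1615 of 8360. At an adjusted p under 0.2, the size of the false discovery rate cutoff in the methods, limma gave 1 of 7 (Ankrd1), against 23.6% of all tested genes, and the unmoderated test gave 2 of 7 (Ankrd1 and Ptpn14), against 9.01%. By limma it was 0 of 7 at that cutoff with median scaling, with the replicate number as a block and in 6 of 8 fits with an array left out. Shares of all tested genes at that cutoff were then 6.69% with median scaling, 15.8% with the block and 1.09% to 13.3% in those 6 fits. It was 2 of 7 (Ankrd1 and Ptpn14) without further background correction (24.9%) and with stricter detection filters (25.6% and 26.8%). It was the same 2 with array weights (49.2%), without EV replicate 3 (38.5%) and without L63RhoA replicate 1 (43.2%). Without both arrays it was 3 of 7, with Amotl2 added (53.7%). With probes averaged it was Ptpn14 alone (21.9%). The log2 means were higher in L63RhoA for 5 genes and lower for 2 (52.2% of all tested genes were higher), and the median log2 change was 0.13, beside 0.01 for all genes tested. Groups did not overlap, with L63RhoA higher, for Ankrd1 and Ptpn14, and for 5.2% of all genes tested. Over all genes tested the groups lay apart in either direction for 9.93% and with L63RhoA lower for 4.72%, as none of the 7 did. The 95% confidence intervals of the 7 ratios lay between 0.717, the lower bound of Amotl2, and 1.34, the upper bound of Ankrd1. All log2 values below are background-corrected and quantile normalized intensities.

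**Figure D2:**
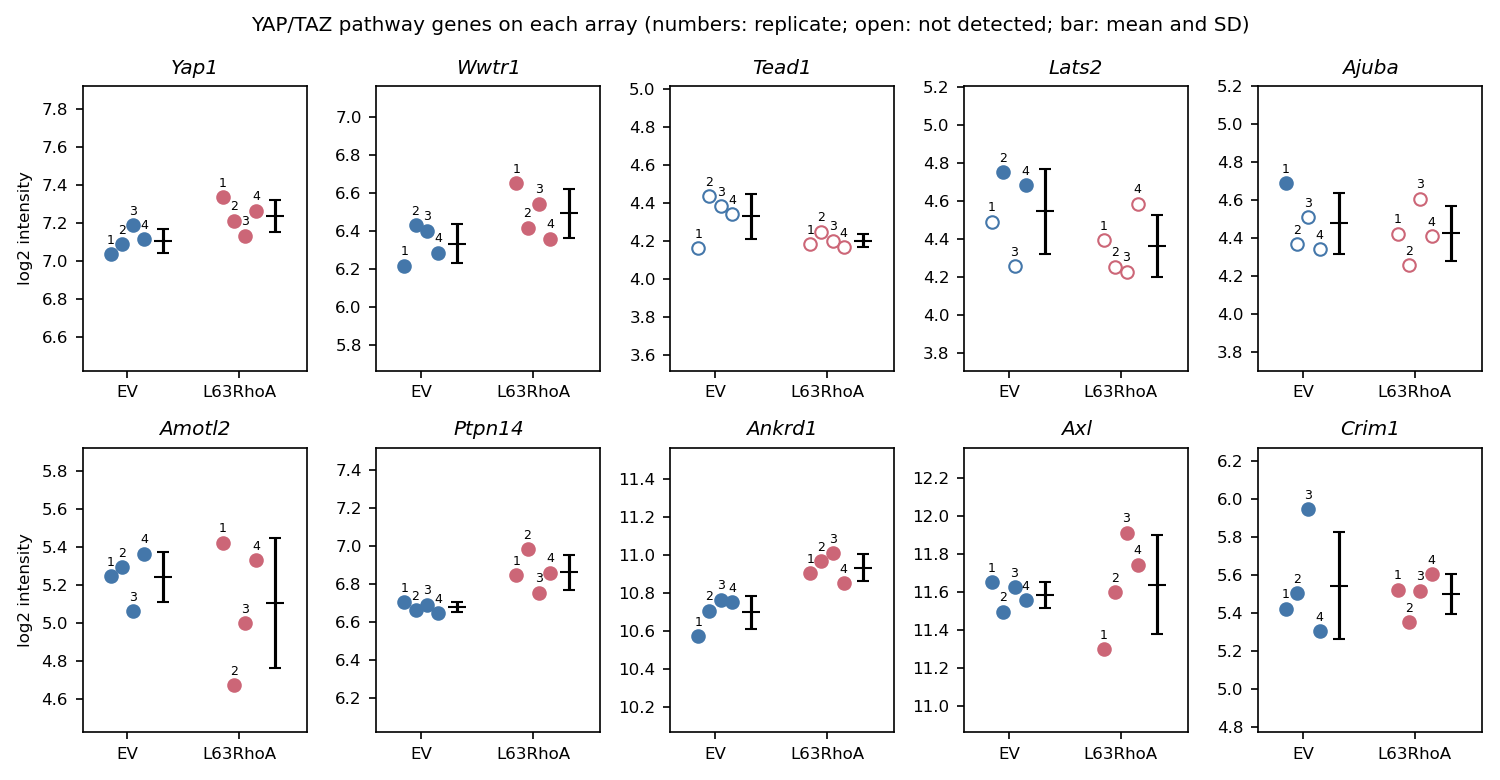
log2 intensity of the representative probe of each gene on each array (points, numbered by replicate, open where the probe was not detected), with the mean and SD of 4 arrays per group as bars. Axes differ between genes in position but span the same range of log2 units, and only Ptpn14 and Ankrd1 among the detected genes have groups that do not overlap.

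Yap1, which encodes YAP, was detected on all 8 arrays. Its log2 intensity was 7.04, 7.09, 7.19 and 7.12 in EV replicates 1 to 4. It was 7.34, 7.21, 7.13 and 7.27 in L63RhoA replicates 1 to 4. Only L63RhoA replicate 3 lay within the EV range, and the EV arrays lay closer together. This gave a log2 change of 0.13 (SE 0.08, 95% confidence interval -0.06 to 0.32), a ratio of 1.09 (0.960 to 1.25), with an adjusted p of 0.358 by limma. Without EV replicate 3 and L63RhoA replicate 1 it was 0.12.

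Wwtr1, which encodes TAZ, had a pair of probes. The brighter read 6.21, 6.43, 6.40 and 6.28 on the EV arrays and 6.65, 6.42, 6.54 and 6.36 on the L63RhoA arrays. The groups overlapped, with L63RhoA replicate 1 highest of the 8. The log2 change was 0.16 (SE 0.10, interval -0.06 to 0.37) with an adjusted p of 0.323 by limma. The dimmer probe read 5.76, 6.42, 5.59 and 5.79 in EV and 6.08, 6.09, 5.69 and 5.84 in L63RhoA, and EV replicate 2 was the highest of all. Its log2 change was 0.03 (interval -0.34 to 0.41, adjusted p = 0.925 over probes by limma).

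The TEAD factor of the set was below detection. The probe of Tead1 was not detected on any array, with raw signals of 86.3 to 99.0 in EV and 86.7 to 94.5 in L63RhoA, and no change is given for it. Of its paralogs, named whatever their values, Tead3 was not detected on any array either. Tead2 read 8.60, 8.46, 8.11 and 8.62 in EV and 8.43, 8.02, 8.13 and 8.17 in L63RhoA, so that EV replicate 3 lay among the L63RhoA values. Its log2 change was -0.26 (SE 0.13, adjusted p = 0.244 by limma). Without EV replicate 3 and L63RhoA replicate 1, arrays picked after the spread was known, it was -0.45 (adjusted p = 0.00774 by limma, where 31.1% of all tested genes passed). Tead4 changed by a log2 value of -0.14 (SE 0.12, adjusted p = 0.508), which did not pass the test.

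Among the regulators of YAP, Lats2, the kinase that phosphorylates it, sat at the limit of detection. Its probe was detected on 2 of 4 EV arrays (replicates 2 and 4) and on 0 of 4 L63RhoA arrays. Raw signals were 94.5 to 99.4 in EV and 93.4 to 100.5 in L63RhoA and overlapped throughout, so no change is given. Ajuba, a LIM protein that binds LATS kinases, had a probe detected on no array and a probe detected on EV replicate 1 alone. The signals of the latter were 88.4 to 102.2 in EV and 95.1 to 105.2 in L63RhoA, again too close to background for a change.

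Ptpn14 encodes a phosphatase that binds YAP and holds it outside the nucleus. Its probe read 6.71, 6.66, 6.69 and 6.65 in EV, a spread of 0.03 (SD). It read 6.85, 6.98, 6.76 and 6.86 in L63RhoA, with an SD of 0.09. Every L63RhoA array lay above every EV array. Between the groups the log2 change was 0.18 (SE 0.08, interval -0.000226 to 0.37), a ratio of 1.14, with an unadjusted p of 0.0502 and an adjusted p of 0.205 by limma. Without EV replicate 3 and L63RhoA replicate 1 it was 0.19 (adjusted p = 0.139). Amotl2, an angiomotin that anchors YAP at junctions, was dim but detected on all 8 arrays. It read 5.25, 5.30, 5.06 and 5.37 in EV and 5.42, 4.67, 5.0 and 5.33 in L63RhoA. The L63RhoA arrays enclosed the EV range on both sides. For Amotl2 the log2 change was -0.14 (SE 0.16, interval -0.48 to 0.21, adjusted p = 0.605), and it was -0.29 (adjusted p = 0.163) without EV replicate 3 and L63RhoA replicate 1. Without L63RhoA replicate 2, the lowest array, it was 0.0086.

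Among the target genes, Ankrd1 came closest to the threshold. Its brighter probe read 10.57, 10.71, 10.76 and 10.75 in EV. It read 10.90, 10.97, 11.01 and 10.85 in L63RhoA. The groups did not overlap, the lowest L63RhoA array standing above the highest EV array. The log2 change was 0.23 (SE 0.09, interval 0.04 to 0.42), a ratio of 1.18 (1.03 to 1.34), with an unadjusted p of 0.0200 and an adjusted p of 0.151 by limma. It was 0.26 with array weights (adjusted p = 0.0421, where 25.1% of all genes passed) and 0.27 without EV replicate 3 and L63RhoA replicate 1 (adjusted p = 0.0578).

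A dimmer probe of Ankrd1 did not show the same separation. It read 9.14, 9.56, 9.23 and 9.45 in EV and 9.63, 9.27, 9.37 and 9.16 in L63RhoA. Both groups ran over nearly the same range. Its log2 change was 0.01 (interval -0.27 to 0.30, adjusted p = 0.963 over probes by limma), and with the probes averaged the change of the gene was 0.12 (adjusted p = 0.428). The change of the brighter probe exceeded that of the dimmer by 0.22 on the log2 scale (two-sided exact permutation test over 70 splits, p = 0.171, adjusted over 5 comparisons 0.214), which did not pass the threshold. For the probes of Wwtr1 the difference was 0.12 (exact permutation p = 0.543, adjusted 0.543). The smallest p that 70 splits can give is 0.0286, which standing alone among 5 comparisons adjusts to 0.143. These tests could therefore hardly pass, and they do not decide whether the probes differ.

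Axl encodes a receptor tyrosine kinase for GAS6. It read 11.65, 11.50, 11.63 and 11.56 in EV and 11.30, 11.60, 11.91 and 11.74 in L63RhoA. The L63RhoA arrays held both the lowest value (replicate 1) and the highest (replicate 3) of the 8, and their SD was 0.26 against 0.07 in EV. For Axl the log2 change was 0.06 (SE 0.13, interval -0.22 to 0.33, adjusted p = 0.807 by limma), and 0.18 (adjusted p = 0.211) without EV replicate 3 and L63RhoA replicate 1. It was -0.04 without L63RhoA replicate 3. Crim1 encodes a transmembrane protein that binds bone morphogenetic proteins. It read 5.42, 5.50, 5.95 and 5.30 in EV and 5.52, 5.35, 5.52 and 5.60 in L63RhoA. EV replicate 3 was above all the others. For Crim1 the log2 change was -0.04 (SE 0.14, interval -0.34 to 0.25, adjusted p = 0.859), and 0.09 without that array.

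The CCN genes, the best known targets of YAP and TAZ, are given for comparison. Ccn2 rose from 8.24, 8.12, 8.18 and 8.12 in EV to 8.66, 8.67, 8.67 and 8.66 in L63RhoA (log2 change 0.50, SE 0.08, adjusted p = 0.0200 by limma). It did not pass with median scaling (adjusted p = 0.102), with the replicate number as a block (adjusted p = 0.128) or in 5 of 8 fits with an array left out (adjusted p up to 0.0946). The brightest of 3 probes of Ccn1 changed by 0.56 (SE 0.14, adjusted p = 0.0934), which did not pass except with array weights (0.46, adjusted p = 0.0353). With its detected probes averaged, Ccn1 changed by 0.41 (adjusted p = 0.173 by limma). The change of Ccn2 exceeded that of Ankrd1 by 0.27 (exact permutation p = 0.0571, adjusted 0.143) and that of Axl by 0.445 (p = 0.0286, the smallest that 70 splits can give, adjusted 0.143). The change of Ccn1 exceeded that of Ankrd1 by 0.33 (exact permutation p = 0.143, adjusted 0.214). These pairs were picked after the values had been seen, and no difference passed after adjustment. A p of 0.0286 standing alone among 5 comparisons adjusts to 0.143. The tests could therefore hardly pass, and they do not decide whether the changes differ.

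**Figure D3:**
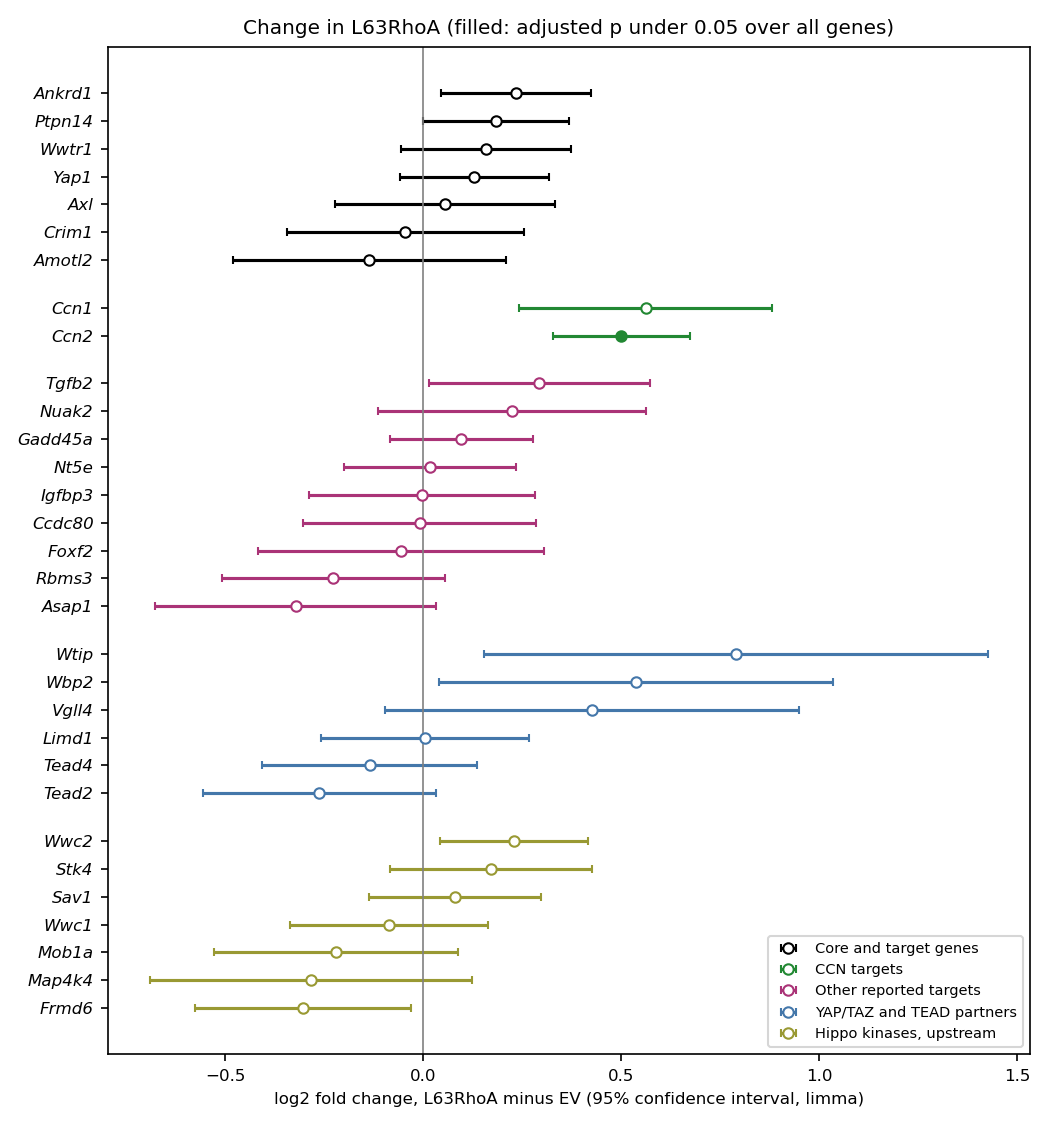
log2 change in L63RhoA minus EV (horizontal axis) with its 95% confidence interval for each tested pathway gene, coloured by list, with filled points for an adjusted p under 0.05 over all genes. Ccn2 at 0.50 is the only filled point, and of the 7 core and target genes (black) only Ankrd1 has an interval wholly above 0, at 0.04 to 0.42.

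The rest of the pathway was read from lists of genes with known roles in it. Of 42 further pathway genes in 3 lists, 31 had a probe and 22 were tested. By limma 0 of 22 reached the threshold, against 0.706% of all tested genes. At an unadjusted p under 0.05 there were 5 of 22, against 24.4%. The 22 changes ran 11 in each direction, with a median log2 value of 0.00124. Of the Hippo kinases and their upstream regulators, 7 of 17 were tested and had a median of -0.09. Lats1 had no probe, and the scaffold Nf2 (merlin) was detected on 2 EV arrays and 0 L63RhoA arrays. Of the other partners of YAP, TAZ and TEAD, 6 of 11 were tested, with a median of 0.22. The LIM protein Limd1 stood at 0.01 (adjusted p = 0.983) and the TEAD co-factor Vgll4 at 0.43 (SE 0.24, adjusted p = 0.281), which became 0.22 without EV replicate 3 and 0.16 without that array and L63RhoA replicate 1. Amotl1 had no probe, and the brightest of 3 probes of Amot was detected on 2 EV arrays and 0 L63RhoA arrays. Raw signals of Nf2 were 92.1 to 106.6 in EV and 92.9 to 100.6 in L63RhoA. Those of Amot were 85.2 to 99.7 and 92.6 to 96.5, so both overlapped near background and no change is given. Fewer probes of any gene were detected on L63RhoA replicates 2 to 4 (11925 to 12119) than on the EV arrays (12546 to 12928), with 12981 on L63RhoA replicate 1.

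Of 14 other reported targets, 9 were tested, with a median log2 change of -0.0030. The lowest p-values belonged to Tgfb2, a growth factor, at 0.29 (adjusted p = 0.190 by limma), to Asap1, an ARF GTPase-activating protein, at -0.32 (adjusted p = 0.236), to the RNA-binding protein gene Rbms3 at -0.23 (adjusted p = 0.286) and to the kinase gene Nuak2 at 0.22 (adjusted p = 0.378). Wtip, a LIM protein of the Ajuba family, is named after its values were seen, since it had the largest of the 22 changes. It read 8.14, 7.38, 8.72 and 7.46 in EV and 8.13, 8.81, 8.93 and 8.97 in L63RhoA. Only L63RhoA replicate 1 lay within the EV range, whose highest value was EV replicate 3, and these are the arrays that stood apart. The log2 change was 0.79 (SE 0.29, adjusted p = 0.150 by limma). It was 1.24 without both of these arrays (adjusted p = 0.00261 by limma, where 31.1% of all tested genes passed).

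**Figure D4:**
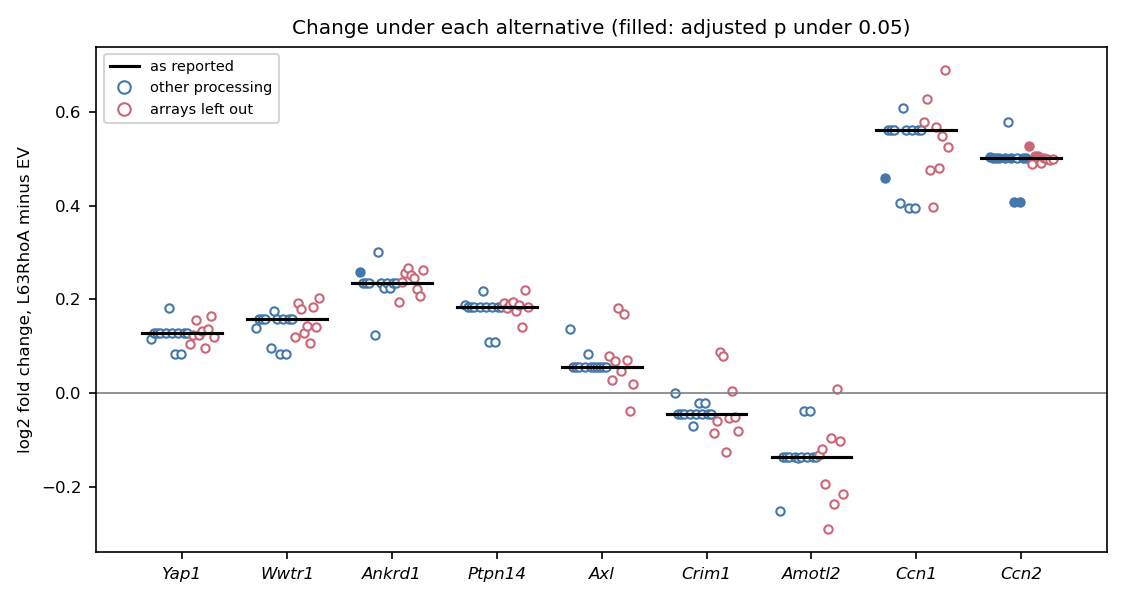
log2 change of each gene (vertical axis) as reported (bars), under other processing (blue) and with arrays left out (red), filled where the adjusted p is under 0.05. Ankrd1 stays between 0.12 and 0.30 and is filled once, whereas Crim1, Amotl2 and Axl cross 0.

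When EV replicate 3 and L63RhoA replicate 1 were left out together, 2492 of 8022 tested genes (31.1%) passed the threshold, and of the genes described here 0 of 7 did. At an unadjusted p under 0.05 there was 1 of 7, against 3504 of the 8022. Of the other 22 pathway genes, 8 passed on those 6 arrays. Wtip and the YAP-binding protein gene Wbp2 were higher in L63RhoA. Tead2, Asap1 (-0.56), Rbms3 (-0.36), the upstream kinase gene Map4k4, the LATS co-activator gene Mob1a and the scaffold gene Frmd6 were lower. These results rest on 3 arrays per group chosen after the spread was known. The arrays left out were those with the largest scores within groups, so the choice itself narrows the spread. The 8 genes, beside 31.1% of all tested genes, are therefore no test of the pathway.

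The tested genes with the pattern nearest to Yap1, by the root mean square difference of log2 values centred per gene over the 8 arrays, were Camk2d (0.0356), Gadd45a (0.0371) and Kdm1a (0.0437), against a median of 0.198 over all tested genes. For Wwtr1 they were Kpna2 (0.0519), Rassf5 (0.0624) and Zbp1 (0.0698), with a median of 0.220. For Ankrd1 they were Parp14 (0.0392), Hmgb2 (0.0432) and Lsm10 (0.0448), with a median of 0.218. Gadd45a is itself on the list of other reported targets. The nearest genes lie below the median because they were selected as nearest, and shared regulation was not tested.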

How the data were processed

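Gene expression was measured on 8 Illumina MouseRef-8 arrays, 4 EV and 4 L63RhoA. The deposited values were signal intensities on a linear scale with a deposited detection p-value per probe, which the authors extracted with GenomeStudio, whose version the sources used here leave unnamed. The lowest intensity was 75.2, so the values were not reduced to 0. The authors' processed table held log2 values that equalled the log2 of quantile normalized intensities on the first array to within 5e-09, although the methods name a variance stabilizing transformation.

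Probes were named through the platform annotation (1 symbol for 23978 of 25697 probes, several for 0, none for 1719). Symbols were updated through gene identifiers of the RefSeq gene table for 23962 probes and kept for 16. Intensities were corrected and quantile normalized by neqc (limma 3.58.1, R 4.3.3, offset 16). A probe entered when its detection p was below 0.05 on 4 or more arrays (12349, of which 11634 were named), and each gene took its brightest probe. L63RhoA was compared with EV by limma (lmFit and eBayes, two-sided) with Benjamini-Hochberg adjustment over 8360 genes. Dimmer probes were adjusted over all detected probes. The number of arrays limits the precision. No arrays held identical values. No slide or scan batch was used here.

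All 10 genes with every probe are named, with Ccn1 and Ccn2, a fixed set of paralogs and partners, 4 other targets with the smallest p, and the nearest patterns of Yap1, Wwtr1 and Ankrd1. The members, lists and rule were chosen with earlier results of these data known. Alternatives were no further background correction, the authors' processed values, median scaling, other detection filters, other uses of probes, a variance trend, weighted arrays, a block for the replicate number, an unmoderated t-test (named in the general statistics of the methods, whereas the authors' array p-values came from permutations), and arrays left out.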

Additional observations from a re-analysis of the deposited data

Results flagged for a closer look

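In 66 groups of 4 arrays (33 probes of the pathway genes), 2 held an array far from the other 3, where chance alone gives about 1 in 20 groups. Asap1 read 9.58 on L63RhoA replicate 1, against 9.12 to 9.19 on the other L63RhoA arrays. Ccdc80, an extracellular matrix protein gene on the list of other reported targets, read 7.38 on the same array, against 6.85 to 6.94 on the others. Without that array the log2 change of Asap1 was -0.43 (adjusted p = 0.0829 by limma) in place of -0.32 (adjusted p = 0.236), and that of Ccdc80 was -0.13 (adjusted p = 0.401) in place of -0.0087 (adjusted p = 0.975). None of the 9 detected probes of the genes described above had such an array, and the probes of Tead1, Lats2 and Ajuba were not checked.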

How the results depend on the processing

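The number of genes changed, 59 as reported, was 116 without further background correction and with the authors' processed values, 139 with a variance trend and robust estimation, 2098 with array weights and 27 by the unmoderated test after adjustment (1615 at an unadjusted p under 0.05). Leaving out 1 array gave 17 to 1289 genes, with 936 when EV replicate 3 was dropped, 1289 when L63RhoA replicate 1 was, and 17 to 28 for the other 6, and leaving out both of these arrays gave 2492. None of the 7 genes passed under the 21 alternatives except Ankrd1 with array weights, which made the count 1. Of the 22 other pathway genes, 5 passed with array weights, against 25.1% of all tested genes. There were 2 without EV replicate 3 (against 11.4%), 1 without L63RhoA replicate 1 (15.7%) and 8 with both left out (31.1%). There were 0 in the other 6 fits with 1 array left out, against 0.206% to 0.342%. Arrays with the same replicate number did not deviate together (correlations of -0.23 to 0.27), and with the replicate number as a block 18 genes passed, with no member among them. With 1 array left out the change of Crim1 ran from -0.126 to 0.0877 (positive when EV replicate 3 was dropped, and 0.0038 when L63RhoA replicate 2 was), that of Amotl2 from -0.237 to 0.0086 (positive only when L63RhoA replicate 2 was dropped) and that of Axl from -0.0373 to 0.169 (negative only when L63RhoA replicate 3 was dropped). Crim1 stood at 0.0786 with EV replicate 3 and L63RhoA replicate 1 both dropped. Ccn2 passed in 14 of 21 alternatives. Among these, no further background correction and the authors' processed values gave identical results and are not separate checks. The causes were not tested. Without further background correction the changes of Yap1 (0.08), Wwtr1 (0.08), Ptpn14 (0.11) and Amotl2 (-0.04) were smaller than reported. Signals of Tead1, Lats2 and Ajuba near background allow no change to be given, and 4 arrays per group leave wide intervals for dim probes.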
